A study of Homo sapiens with 2 samples.

Results

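The 47 genes described here encode receptor tyrosine kinases and are the members of a fixed list of gene symbols, found among 20037 protein-coding genes of a RefSeq table on GRCh38 (hg38). DNase-seq, which cuts DNA where nucleosomes and other proteins leave it exposed, was carried out on the established human osteosarcoma cell lines Saos-2 and U2OS. Each line was represented by 1 library of nuclei digested with limiting DNase I, and no treatment, genotype change or time point was labelled for either. The deposited files list hotspots, the regions with an excess of cuts, at a false discovery rate of 0.05. A hotspot was assigned to a receptor gene when it overlapped the gene span extended by 10 kb on each side. This gave 191 of 51556 Saos-2 hotspots and 253 of 63388 U2OS hotspots. With 1 library a line no p-value can be given, and the exact 95% intervals below cover counting error only.

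Receptor tyrosine kinases are single-pass membrane proteins that bind a ligand outside the cell, pair, and phosphorylate tyrosines on each other. The phosphorylated tails recruit adaptors such as GRB2 and SHC1, which pass the signal to RAS and MAP kinases and to PI3-kinase and AKT, and Sprouty, SPRED and DUSP proteins damp the signal. In bone, receptors for IGF, FGF and PDGF act in osteoblasts and their precursors, and CSF1R acts in the precursors of osteoclasts. Regulatory DNA at such genes lies both at the transcription start and in distant elements, many of them inside introns, and DNase I hypersensitivity marks either kind without showing whether a gene is transcribed.

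Most receptor genes had hotspots in both lines. Both lines were represented at 39 of the 47 genes, where 70.5% of all protein-coding genes had a hotspot in both. ROS1 and EPHA7 had hotspots in Saos-2 only (4.23% of all genes). FGFR4, TIE1, EPHA3 and EPHB6 had them in U2OS only (10.9%), and FGFR3 and INSRR had none in either line (14.4%). The receptor genes are long, with windows of 30.2 to 1183 kb and a median of 103 kb, against a median of 44.1 kb over all protein-coding genes, so these shares are not read as a property of receptors. Counts per gene ran from 0 to 22 with a median of 3 in Saos-2, and from 0 to 28 with a median of 4 in U2OS. Per 100 kb of window the median was 2.25 hotspots in Saos-2 and 3.57 in U2OS, where all protein-coding genes had 2.71 and 3.13.

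U2OS had the higher count at 26 receptor genes and Saos-2 at 15, where 37.3% of all protein-coding genes had more hotspots in U2OS and 24.6% had more in Saos-2. The 6 receptor genes with equal counts were FLT3, KDR, FGFR2 and DDR1, with hotspots, and INSRR and FGFR3, without any. The rest of all protein-coding genes also had equal counts, and 14.4% of all had no hotspot in either line. The comparison was not matched for gene length, so these shares are not read as a property of receptors. Over all receptor genes U2OS had 1.32 times as many hotspots as Saos-2. The ratio was 1.23 over the full lists and 1.16 over the windows of all protein-coding genes, so a large part of the excess at the receptors was present across the genome. The number of reads behind each list is unknown, and the part of depth in any difference in counts was not tested.

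**Figure D1:**
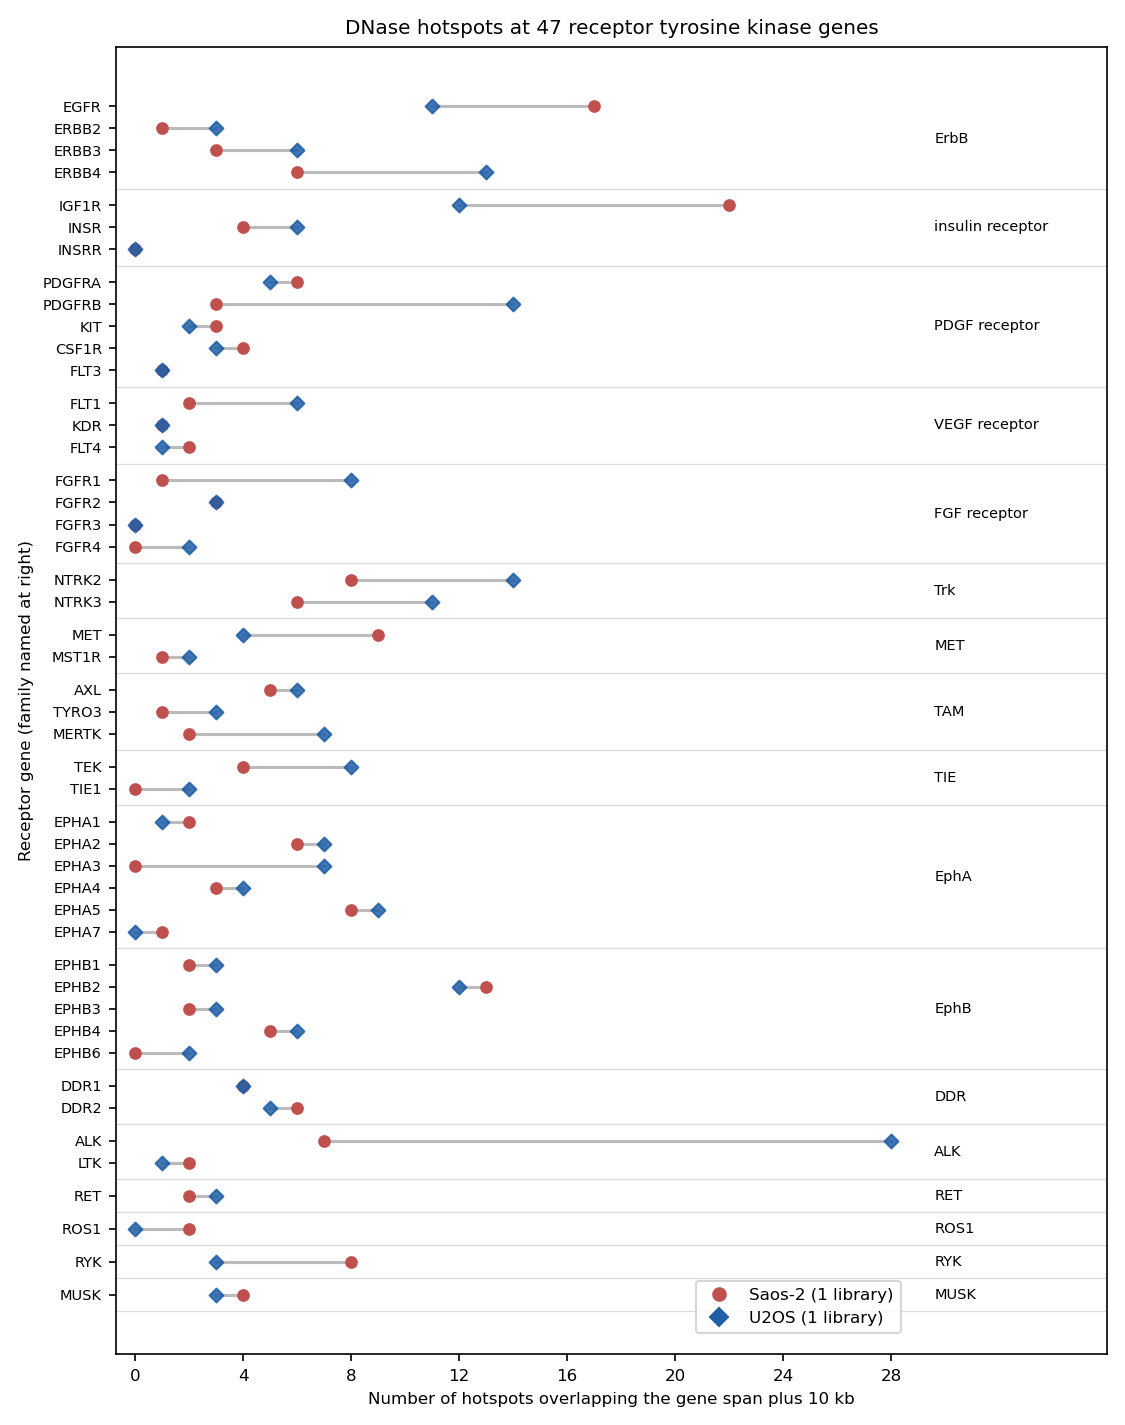
Hotspots overlapping the gene span plus 10 kb (x axis, number) at each of the 47 receptor genes (y axis, grouped by family), with 1 point for the Saos-2 library and 1 for the U2OS library. ALK has the widest gap, with 7 Saos-2 and 28 U2OS hotspots, and IGF1R has the highest Saos-2 count, 22.

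In the U2OS list, the share of receptor hotspots overlapped by the other line lay below the share at all protein-coding genes. The comparison was not matched for gene length or for place in the gene, so it is not read as a property of receptors. Of the 191 Saos-2 hotspots, 106 (55.5%, 95% interval 48.2 to 62.7%) were overlapped by at least 1 bp of a U2OS hotspot, and the share over the windows of all protein-coding genes was 60.8%. Of the 253 U2OS hotspots, 104 (41.1%, 35.0 to 47.4%) were overlapped by a Saos-2 hotspot, against 51.8% over the windows of all protein-coding genes. The share over all U2OS hotspots, 46.9%, lay inside the receptors' interval. ALK alone held 28 of the U2OS hotspots. Without ALK the share was 100 of 225 (44.4%, 37.8 to 51.2%). With the U2OS list cut to the length of the Saos-2 list, the U2OS share at the receptors was 43.9% (37.0 to 51.0%) and over all protein-coding genes 57.3%. Neighbouring hotspots are not independent, so the true intervals are wider than these.

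Joined into sites, overlapping hotspots of the lines formed 334 sites at the receptor genes. Both lines shared 100 of them (29.9%), Saos-2 alone had 85 (25.4%) and U2OS alone had 149 (44.6%). Over the whole lists the lines shared 34.5% of sites, Saos-2 alone had 25.6% and U2OS alone 39.9%. Overlapped hotspots were the stronger and wider ones. In Saos-2 the authors' −log10 significance, their own value for each hotspot, had a median of 5.17 where a hotspot was overlapped and 3.07 where it was not, with median widths of 290.5 and 187 bp. In U2OS the medians were 6.12 and 3.65, with widths of 304 and 203 bp.

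Overlap is also given by place, for the receptor genes only. The same split was not made for all protein-coding genes, so it is not read as a property of receptors. Within 1 kb of a listed transcription start, 20 of 26 Saos-2 hotspots (76.9%, 56.4 to 91.0%) and 19 of 30 U2OS hotspots (63.3%, 43.9 to 80.1%) were overlapped. Inside the genes and away from the starts, which held most receptor hotspots, 64 of 131 Saos-2 hotspots (48.9%, 40.0 to 57.7%) and 65 of 178 U2OS hotspots (36.5%, 29.4 to 44.1%) were overlapped. Strong hotspots of a single line were present too. Among receptor hotspots with a significance of at least 10, 8 of 30 in Saos-2 (26.7%, 12.3 to 45.9%) and 17 of 51 in U2OS (33.3%, 20.8 to 47.9%) had no overlap. The same shares over the full lists, 16.4% and 23.5%, lay inside these intervals.

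The RefSeq promoter table gave transcription starts for 43 of the 47 receptors, all but ERBB3, FLT4, FGFR1 and INSRR. A gene's start is called open in a line with a hotspot within 1 kb of any listed start, whether or not the hotspot covered it. A hotspot lay within 1 kb of a start in both lines at 17 receptor genes, where 46.3% of all listed genes had one. It lay there in Saos-2 only at EGFR, FLT3 and LTK (4.78% of all genes) and in U2OS only at INSR, PDGFRB, FGFR4, NTRK3, RET and RYK (9.54%). At 17 genes neither line had a start hotspot (39.3%), and these included KIT, ERBB4, FGFR3, MERTK, TEK, EPHA3 and EPHB2. The receptors' shares, 39.5% for both lines, 6.98% for Saos-2 alone, 14.0% for U2OS alone and 39.5% for neither, had counting intervals that held the shares of all genes.

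Start hotspots found in a single line were weak at several genes in either line. In Saos-2 they had a significance of 1.67 at EGFR, 1.77 at FLT3 and 2.43 at LTK. In U2OS they had 2.23 at FGFR4, 2.41 at NTRK3, and 3.65 and 3.86 at INSR. The U2OS start hotspot reached 13.0 at RYK, which binds WNT ligands, and 9.13 at PDGFRB, the receptor for PDGF-B on mesenchymal cells. The one at RET, the GDNF receptor subunit, reached 17.9 and lay at the downstream of 2 listed starts.

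The 250 bases upstream of 6 starts show the range of these promoters, with 3 open in U2OS only (PDGFRB, RYK and INSR), 2 in both lines (ALK and EPHB3) and 1 in neither (KIT). They are from RefSeq on GRCh38, are written 5′ to 3′ on the strand of the gene, and end at the base before the start. Capitals mark bases inside a U2OS hotspot for PDGFRB, RYK and INSR, and bases inside a hotspot of both lines for ALK and EPHB3. KIT has no capitals.
PDGFRB: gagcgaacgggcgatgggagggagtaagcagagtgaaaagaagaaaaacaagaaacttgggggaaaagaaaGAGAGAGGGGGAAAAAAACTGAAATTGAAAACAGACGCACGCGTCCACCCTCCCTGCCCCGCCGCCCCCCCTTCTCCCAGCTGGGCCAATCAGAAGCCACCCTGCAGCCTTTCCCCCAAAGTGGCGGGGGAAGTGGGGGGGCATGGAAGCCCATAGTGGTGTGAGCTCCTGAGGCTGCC
RYK: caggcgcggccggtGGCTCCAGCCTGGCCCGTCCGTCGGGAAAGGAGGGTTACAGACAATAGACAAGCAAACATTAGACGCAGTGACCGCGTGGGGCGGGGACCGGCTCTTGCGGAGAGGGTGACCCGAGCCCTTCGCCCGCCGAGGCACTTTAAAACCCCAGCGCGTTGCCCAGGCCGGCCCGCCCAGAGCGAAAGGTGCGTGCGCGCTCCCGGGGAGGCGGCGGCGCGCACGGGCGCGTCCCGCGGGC
INSR: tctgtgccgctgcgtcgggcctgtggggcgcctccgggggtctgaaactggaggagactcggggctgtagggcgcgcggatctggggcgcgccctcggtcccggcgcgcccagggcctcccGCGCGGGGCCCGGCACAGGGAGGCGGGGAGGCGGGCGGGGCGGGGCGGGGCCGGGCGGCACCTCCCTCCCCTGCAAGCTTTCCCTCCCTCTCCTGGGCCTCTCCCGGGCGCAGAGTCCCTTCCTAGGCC
ALK: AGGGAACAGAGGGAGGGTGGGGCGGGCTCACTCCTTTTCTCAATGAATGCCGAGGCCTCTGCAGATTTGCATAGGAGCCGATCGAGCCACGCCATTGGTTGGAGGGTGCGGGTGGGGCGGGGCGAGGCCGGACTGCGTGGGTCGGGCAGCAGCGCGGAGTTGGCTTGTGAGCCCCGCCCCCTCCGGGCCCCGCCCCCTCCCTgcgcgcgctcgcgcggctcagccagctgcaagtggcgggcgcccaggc
EPHB3: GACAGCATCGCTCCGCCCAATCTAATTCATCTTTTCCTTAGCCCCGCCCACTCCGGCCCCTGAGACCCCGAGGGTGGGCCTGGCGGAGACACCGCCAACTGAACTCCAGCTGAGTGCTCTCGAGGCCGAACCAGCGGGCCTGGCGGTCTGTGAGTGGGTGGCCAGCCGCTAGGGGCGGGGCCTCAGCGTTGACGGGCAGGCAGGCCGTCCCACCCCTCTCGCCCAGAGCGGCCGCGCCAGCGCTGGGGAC
KIT: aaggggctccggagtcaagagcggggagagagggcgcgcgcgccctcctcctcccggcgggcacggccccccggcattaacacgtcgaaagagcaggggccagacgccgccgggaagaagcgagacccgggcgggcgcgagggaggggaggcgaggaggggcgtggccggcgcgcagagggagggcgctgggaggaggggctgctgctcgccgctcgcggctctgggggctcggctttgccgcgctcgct
They lie at chr5:150155846-150156095 (minus strand), chr3:134250860-134251109 (minus), chr19:7294415-7294664 (minus), chr2:29921587-29921836 (minus), chr3:184561535-184561784 (plus) and chr4:54657707-54657956 (plus).

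The PDGFRB hotspot covered 179 of its 250 bases and the RYK hotspot 236, in sequence with 9 CpG at PDGFRB and 34 at RYK. The KIT window, with no hotspot, also had 34 CpG, so CpG number did not separate open from closed windows among the 6. KIT was the only closed window of the 6, so this is not read as a property of promoters. CpG medians by hotspot class are given below for all listed windows. Each window held the SP1 motif GGGCGG on one or the other strand, with 1 match at PDGFRB and KIT, 2 at RYK, 3 at EPHB3 and 4 at INSR and ALK. The NF-Y motif CCAAT, searched on both strands, was matched once each at PDGFRB, ALK and EPHB3, and begins at base 157 of the PDGFRB window, inside the U2OS hotspot. A match is a description of the letters and not a bound site.

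Across all 73 listed promoter windows of the 43 receptors, each from 250 bases before to 50 after a start, 12 overlapped hotspots of both lines, 6 those of Saos-2 alone, 6 those of U2OS alone and 49 those of neither. Over the 22199 windows of all protein-coding genes the shares were 35.5%, 4.18%, 8.12% and 52.2%. The share in both lines at the receptors was 16.4%. Several receptors have more than 1 listed start, and windows of the same gene are not independent. Counted by gene, 12 of 43 receptors and 6757 of all 15843 listed genes had a window overlapped in both lines. The receptor windows held a median of 19 CpG, against 21 over all windows. The median was 25 in receptor windows overlapped in both lines and 12 in those overlapped in neither. Over all protein-coding genes these medians were 27 and 9. Receptor windows overlapped in Saos-2 alone had a median of 24, and those in U2OS alone 14. Single receptor windows ranged from 3 to 55 CpG where both lines overlapped and from 0 to 51 where neither did. GGGCGG was found in 61.6% of receptor windows and 56.3% of all windows, and CCAAT in 32.9% and 34.7%. The AP-1 motif TGANTCA was in 9.59% of receptor and 6.15% of all windows, the RUNX motif TGTGGT in 8.22% and 11.3%, and the TEAD motif GGAATG in 12.3% and 12.2%. The ETS motif CCGGAAG was found in 3 receptor windows (4.11%), where 12.8% of all windows held it. Among windows overlapped in both lines, 1 of 12 receptor windows (8.33%) and 24.5% of all such windows held it. Among windows overlapped in neither line the shares were 2.04% and 5.01%. All motifs were searched on both strands, and windows of neighbouring starts share bases.

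By family, 11 of 17 families or single receptors had more hotspots in U2OS and 6 had more in Saos-2. The Saos-2 side comprised the insulin receptor family (26 in Saos-2 and 18 in U2OS), the MET family (10 and 6), the collagen receptors DDR1 and DDR2 (10 and 9), RYK (8 and 3), MUSK (4 and 3) and ROS1 (2 and 0). On the U2OS side, the highest ratios of U2OS to Saos-2 counts were those of the FGF receptors (4 and 13), the ALK family (9 and 29), the TIE receptors (4 and 10) and the TAM receptors (8 and 16). U2OS contributed 76.3% of the ALK family hotspots (59.8 to 88.6%), and this interval lay above its 55.1% of the full lists. ALK itself held 28 of the 29 U2OS hotspots, and LTK, the other member, had 2 in Saos-2 and 1 in U2OS. This was 1 interval of 17, and neighbouring hotspots are not independent, so it is not read as a trait of the family. The interval of each other family held 55.1%, that of the FGF receptors being 76.5% (50.1 to 93.2%). These directions were not all stable: with lists of equal length the ErbB counts were 27 and 25 and the EphB counts 22 and 22, with windows of 50 kb the DDR counts were 13 and 15, and over the gene span alone the MUSK counts were 2 and 3.

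**Figure D2:**
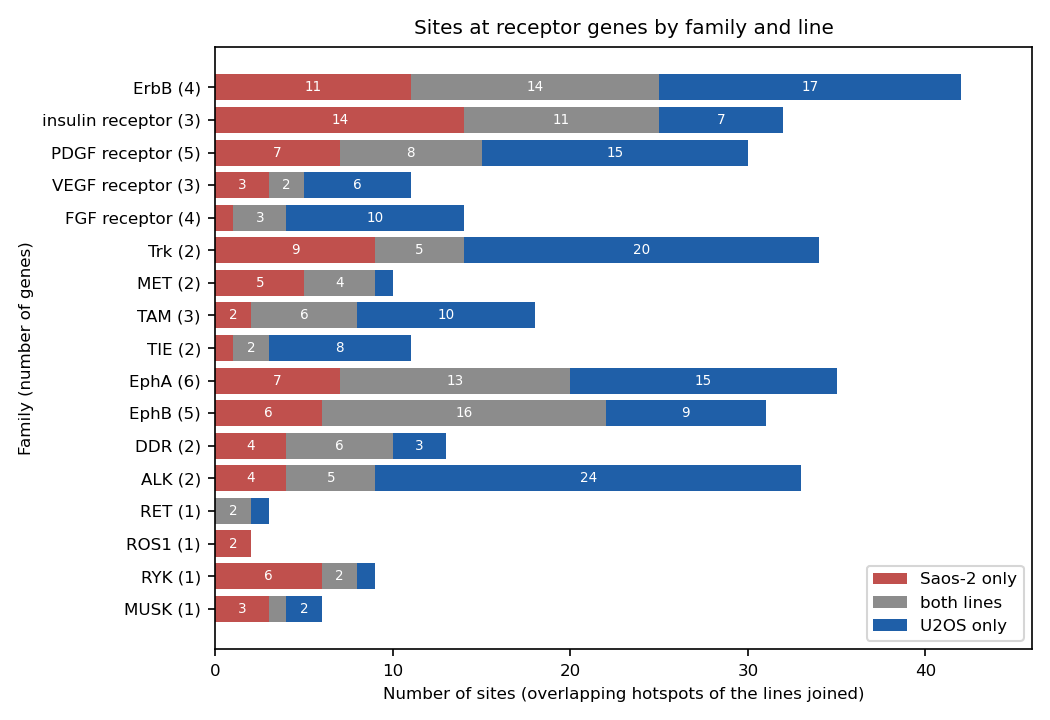
Sites per receptor family (x axis, number of sites), split into those of Saos-2 alone, shared sites and those of U2OS alone. The EphB receptors had the most shared sites, 16 of 31, and the ALK family the most sites of a single line, with 24 of 33 in U2OS only.

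The ErbB receptors bind EGF, neuregulins and related ligands, and drive growth in many epithelial tissues. EGFR had 17 Saos-2 and 11 U2OS hotspots, of which 9 and 8 were overlapped. The strongest EGFR hotspot was nonetheless in U2OS, at chr7:55065049-55065438 in the gene body, with a significance of 34.1 where the overlapping Saos-2 hotspot had 8.21. The Saos-2 hotspots of EGFR reached 8.70 at most. ERBB2, the partner receptor without a known ligand of its own, had 1 hotspot in Saos-2, at its start, and 3 in U2OS, and was open at its start in both lines.

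ERBB3 and ERBB4, the neuregulin receptors, were skewed to U2OS. A gene was called skewed when 1 line had at least 4 hotspots and at least 2 times the count of the other. ERBB3 had 3 and 6 hotspots (Saos-2 first, as in all pairs of counts below), exactly at this limit, and the strongest in each line (significance 17.9 and 20.2) lay within 1 kb of the start of a neighbouring gene. ERBB4, whose window of 1183 kb was the longest, had 6 and 13 hotspots, only 3 sites of 15 being shared and none lying at the start. Its strongest hotspot, at chr2:212451739-212452326 and 86.8 kb inside the gene, had a significance of 39.4 in U2OS, and the Saos-2 hotspots of the gene reached 7.84. A U2OS hotspot at chr2:211408456-211408987 (16.9), toward the other end of ERBB4, was 202144 bp from the nearest Saos-2 hotspot. With lists of equal length neither ERBB3 (3 and 5) nor ERBB4 (6 and 9) was skewed. Over the gene span alone ERBB3 had 0 and 1 hotspots and was not skewed, its other hotspots lying in the flanks.

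IGF1R carried the largest Saos-2 set. This receptor for insulin-like growth factors, which support osteoblast growth and survival, had 22 Saos-2 and 12 U2OS hotspots, a gap just short of the skew limit. Of its 24 sites, 9 were shared, 12 belonged to Saos-2 alone and 3 to U2OS alone, and both lines had a hotspot at the start. The strongest Saos-2 hotspots without overlap, at chr15:98954417-98954834 (17.2) and chr15:98914644-98915077 (13.8), lay 306 and 266 kb downstream of the start. The 2 Mb around the IGF1R window held 53 Saos-2 and 50 U2OS hotspots, a much smaller gap. With lists of equal length IGF1R was called skewed to Saos-2. INSR, the insulin receptor, had 4 Saos-2 and 6 U2OS hotspots, with a start hotspot in U2OS only.

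The PDGF receptor family joins receptors of mesenchymal cells to receptors of blood cell lineages. PDGFRA, on chromosome 4, had 6 Saos-2 and 5 U2OS hotspots with 4 of 6 sites shared. Both lines had a hotspot within 1 kb of a listed PDGFRA start, but neither promoter window of the gene overlapped a U2OS hotspot. PDGFRB had 3 Saos-2 and 14 U2OS hotspots. All 3 PDGFRB sites of Saos-2 were shared, so 11 of 14 sites were in U2OS only, among them the start hotspot at chr5:150155762-150156024. Another 5 lay in the gene body between 11.4 and 18.3 kb downstream of the start. Hotspots in the surrounding 2 Mb numbered 87 in Saos-2 and 88 in U2OS.

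KIT, the stem cell factor receptor, stood out by strength and not by number. It had 3 Saos-2 and 2 U2OS hotspots. In Saos-2 the hotspot at chr4:54687668-54688351, 30.1 kb downstream of the start and inside the gene, had a significance of 46.7, the highest of any receptor hotspot of Saos-2, and the one at chr4:54746212-54746767, beyond the end of KIT, had 38.4. Neither was overlapped in U2OS, where the hotspots of KIT reached 1.93. The start of KIT, printed above, had no hotspot in either line.

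CSF1R, the receptor of osteoclast and macrophage precursors, lies next to PDGFRB, and their windows share 1 Saos-2 and 2 U2OS hotspots. CSF1R had 4 Saos-2 and 3 U2OS hotspots. The shared hotspot near its start reached a significance of 17.9 (Saos-2) and 8.52 (U2OS). FLT3, a receptor of blood progenitors, had 1 weak hotspot in each line, at different positions.

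The FGF receptors had few hotspots in Saos-2. FGFR1 had 1 Saos-2 and 8 U2OS hotspots, a skew to U2OS, with 7 of 8 sites in U2OS only. The 2 Mb around FGFR1 also leaned to U2OS, with 42 and 80 hotspots, and so did chromosome 8 with 2077 and 3415. The part of this neighbourhood in the FGFR1 count was not tested. FGFR2 had 3 hotspots in each line, and its Saos-2 hotspot at chr10:121527685-121528041 (14.8) was among the 5 strongest of that line without overlap. FGFR3 had none in either line, which allows up to 3.69 hotspots by counting error. FGFR4 had 0 in Saos-2 and 2 weak ones in U2OS, the stronger reaching a significance of 2.23.

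ALK, the receptor that is rearranged in some lymphomas and lung cancers, had the largest gap, with 7 Saos-2 and 28 U2OS hotspots. Its window spans 749 kb, and of 31 sites 4 were shared, 3 belonged to Saos-2 alone and 24 to U2OS alone. The start was open in both lines. The strongest hotspot, at chr2:29747852-29748560 and 173 kb inside the gene, had a significance of 53.3 in U2OS and was overlapped by a Saos-2 hotspot of 11.2. A further U2OS hotspot at chr2:29878965-29879385 (17.7) was 42249 bp from the nearest Saos-2 hotspot. The surrounding 2 Mb held 64 and 79 hotspots, and the whole of chromosome 2 held 4138 and 5519. LTK, the closest relative of ALK, had 2 Saos-2 and 1 U2OS hotspots.

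**Figure D3:**
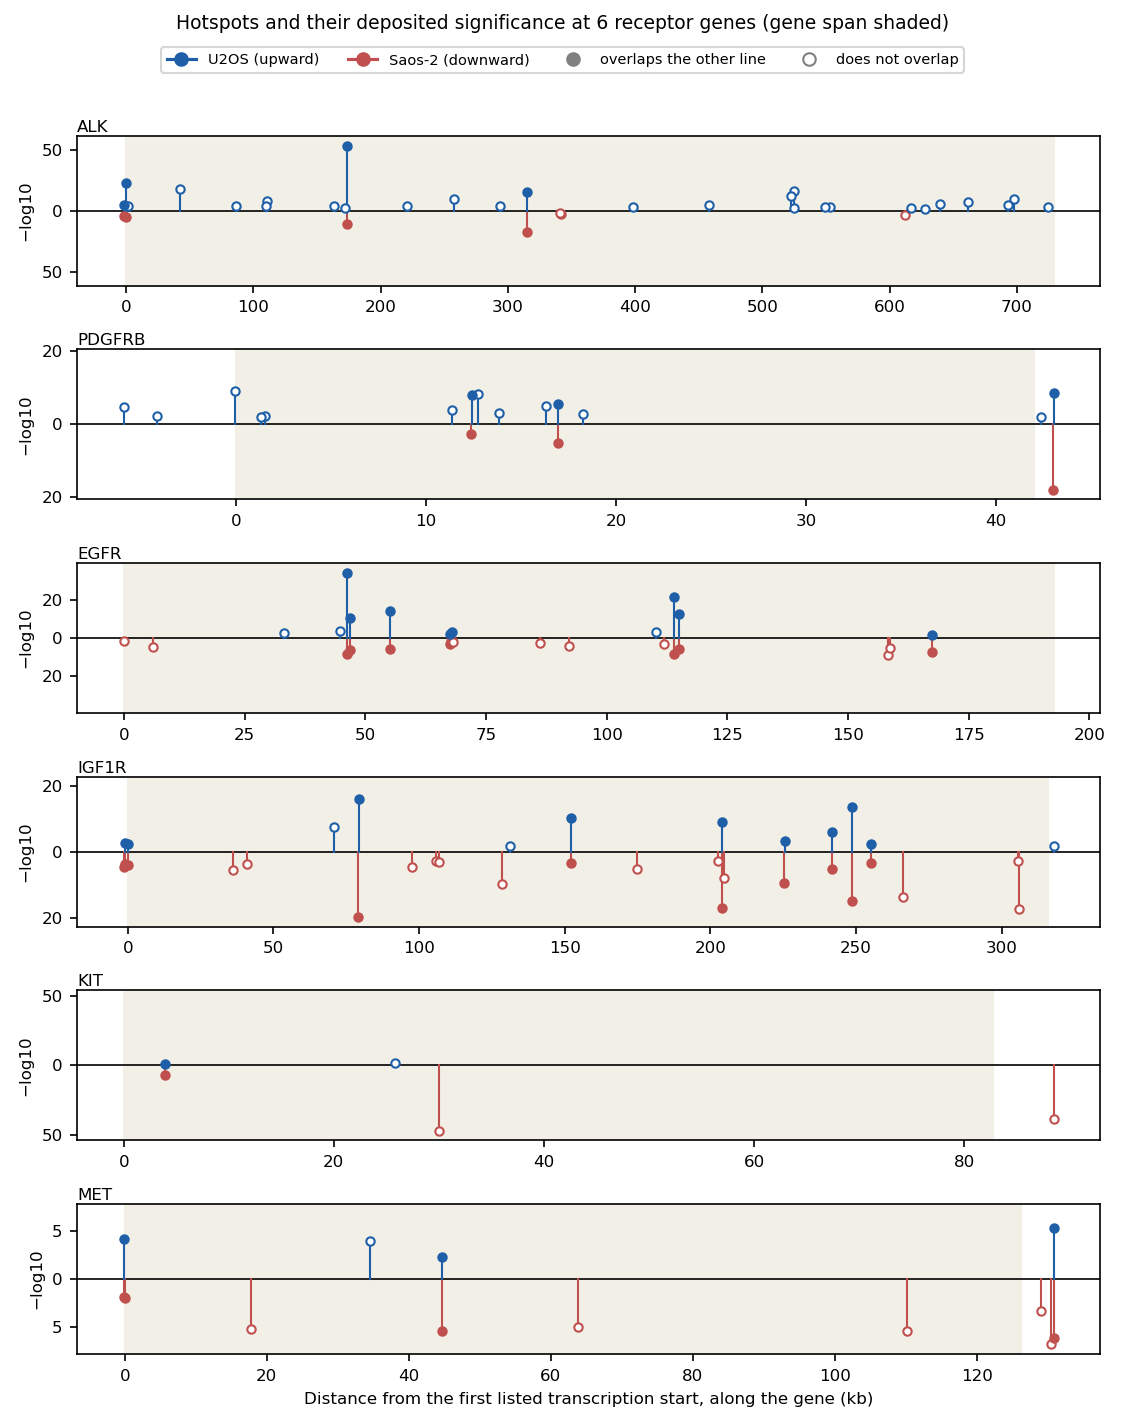
Hotspots along the windows of ALK, PDGFRB, EGFR, IGF1R, KIT and MET (x axis, distance from the first listed start in kb), with stems for U2OS drawn upward and for Saos-2 downward to the authors' −log10 significance (y axis), filled points for overlapped hotspots, open points for the others and the gene span shaded. ALK and PDGFRB have more upward stems, IGF1R and MET more downward stems, and the longest KIT stems, 46.7 and 38.4, are those of Saos-2.

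MET and RYK were the receptors skewed to Saos-2. MET, the receptor for hepatocyte growth factor, had 9 Saos-2 and 4 U2OS hotspots, with 5 of 9 sites in Saos-2 only. At its start U2OS had 1 hotspot of 543 bp where Saos-2 had 2 of 296 and 79 bp. When hotspots less than 150 bp apart were merged the counts were 7 and 4, and MET was no longer skewed. The MET call was also lost over the gene span alone (5 and 3), with windows of 50 kb (11 and 6) and with a limit of 3 times. RYK had 8 Saos-2 and 3 U2OS hotspots, with 6 of 9 sites in Saos-2 only and its single U2OS-only site at the start. RYK therefore had more sites in 1 line and an open start in the other. The RYK call was lost among the stronger 50% of hotspots (3 and 2), among hotspots of at least 200 bp (3 and 2) and with a limit of 3 times. MST1R, the relative of MET, had 1 and 2 hotspots.

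The TAM receptors AXL, TYRO3 and MERTK bind GAS6 and PROS1 and act in the clearance of dying cells. AXL had 5 Saos-2 and 6 U2OS hotspots, with 5 of 6 sites shared and a start open in both lines. Its strongest Saos-2 hotspot, at chr19:41263618-41264389 (24.6), was near the start of another gene. MERTK had 2 Saos-2 and 7 U2OS hotspots, and the strongest receptor hotspot of U2OS, at chr2:111975018-111975633 and 76.7 kb inside MERTK, had a significance of 53.7 there. The MERTK hotspots of Saos-2 reached 5.13. TYRO3 had 1 and 3 hotspots, none of them overlapped.

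TEK and TIE1, receptors of endothelial cells that bind or modulate the response to angiopoietins, leaned to U2OS. TEK had 4 Saos-2 and 8 U2OS hotspots, exactly at the skew limit, with the strongest at chr9:27154908-27155337, inside the gene, where the significance was 40.8 in U2OS and 9.10 in the overlapping Saos-2 hotspot. TIE1 had none in Saos-2 and 2 in U2OS, both in its flanks, and the stronger reached 14.0. Its surrounding 2 Mb held 31 and 93 hotspots. No start of either gene had a hotspot in either line. Among the VEGF receptors FLT1 had 2 and 6 hotspots with none shared, KDR 1 and 1, and FLT4 2 and 1. PECAM1, CDH5 and TAL1, markers of endothelium, had 7 Saos-2 and 10 U2OS hotspots in total, and the only one with a listed start had no start hotspot in either line.

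The Trk receptors for neurotrophins had hotspots spread along long genes. NTRK2 had 8 Saos-2 and 14 U2OS hotspots, and NTRK3 had 6 and 11, a gap just short of the skew limit. Only 4 of 18 NTRK2 sites and 1 of 16 NTRK3 sites were shared. The strongest Saos-2 hotspot of NTRK2, at chr9:84975944-84976536 (24.6), was overlapped by a U2OS hotspot of 5.79, and the highest U2OS value of the gene, 24.6, was at another site.

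Ephrin receptors guide cell contact and repulsion. Most hotspots of the EphB genes were found in both lines, with 16 of 22 Saos-2 hotspots (72.7%, 49.8 to 89.3%) and 17 of 26 U2OS hotspots (65.4%, 44.3 to 82.8%) overlapped. Both intervals held the shares over the windows of all protein-coding genes, 60.8% and 51.8%. EPHB2 had 13 and 12 hotspots, with the strongest overlapped hotspot of Saos-2 at chr1:22831843-22832738 (40.5), where U2OS had 2 hotspots of 28.8 and 6.31. EPHB4 had 5 and 6 and EPHB3 2 and 3, and both were open at the start in both lines, as was EPHB1 with 2 and 3. EPHB6, which lacks kinase activity, had 0 and 2.

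The EphA genes varied among themselves. EPHA3 had 0 Saos-2 and 7 U2OS hotspots, none at its start. The strongest, at chr3:89098185-89098509 and 9.27 kb upstream of the start, had a significance of 19.4, and no Saos-2 hotspot was closer to it than 72687 bp. The 2 Mb around EPHA3 held 8 Saos-2 and 25 U2OS hotspots, the largest lean to U2OS around any of the skewed receptors (log2 ratio 1.64). Counting error allows up to 3.69 hotspots where 0 were seen. EPHA5 had 8 and 9 hotspots with 6 of 11 sites shared, and held the strongest U2OS hotspot without overlap, at chr4:65383574-65384234 (25.8). EPHA2 had 6 and 7 with 5 of 8 sites shared, EPHA4 3 and 4, and EPHA1 2 and 1. EPHA7 had 1 weak hotspot in Saos-2 and none in U2OS.

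DDR1 and DDR2, which bind collagen, had 4 hotspots in each line (DDR1) and 6 and 5 (DDR2). In both lines each gene had a hotspot within 1 kb of a listed start, but no DDR1 promoter window overlapped a U2OS hotspot. DDR1 held the overlapped Saos-2 hotspots at chr6:30907821-30908305 (26.4), near the start of another gene, and at chr6:30886059-30886712 (20.6), near a DDR1 start. RET had 2 and 3 hotspots, MUSK, the receptor of the nerve-muscle junction, 4 and 3, and ROS1 2 and 0. The RET start hotspot in U2OS was at chr10:43105391-43105725 and 23631 bp from the nearest Saos-2 hotspot.

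In all, 9 receptor genes were skewed to U2OS (19.1%, 9.15 to 33.3%), namely ALK, PDGFRB, FGFR1, EPHA3, MERTK, FLT1, ERBB3, ERBB4 and TEK, against 8.08% of all protein-coding genes. MET and RYK were skewed to Saos-2, against 4.61% of all genes. Receptor genes with longer windows held more hotspots (rank correlation across the 47 genes 0.54 in Saos-2 and 0.57 in U2OS, a description). The part of gene length in the skew calls was not tested. Among genes with at least 4 hotspots in a line, 28% were skewed to U2OS and 9 of 27 receptors (33.3%, 16.5 to 54.0%), and 16% were skewed to Saos-2 and 2 of 27 receptors. Among genes with windows in the middle range of receptor lengths (44.7 to 200.8 kb), 9.41% were skewed to U2OS and 4 of 23 receptors, and 6.46% to Saos-2 and 2 of 23 receptors. In both comparisons the receptors' intervals held the shares of the other genes. The limit of 4 hotspots is itself part of the skew rule, so every skewed gene passes it. No conclusion is therefore drawn from the comparison that uses it. The length range left out ALK, ERBB4, EPHA3, FLT1 and ERBB3. The interval of its 4 of 23 was wide (4.95 to 38.8%), so that comparison could hardly show a difference.

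The skew calls depended on the length of the lists. With the U2OS list cut to the length of the Saos-2 list, 6 receptors were skewed to U2OS (12.8%, 4.83 to 25.7%), against 4.55% of all genes. To Saos-2, 7 were skewed (14.9%, 6.20 to 28.3%), against 6.83%. These shares take no account of gene length. ERBB3, ERBB4 and TEK dropped out on the U2OS side, and CSF1R, DDR1, DDR2, IGF1R and MUSK joined MET and RYK on the Saos-2 side. The receptor hotspots then numbered 191 in Saos-2 and 205 in U2OS, with 9 families higher in U2OS and 7 in Saos-2, and the windows of all protein-coding genes held 34350 and 32785. ALK, PDGFRB and EPHA3 were skewed to U2OS in all 8 settings in which the call was repeated.

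**Figure D4:**
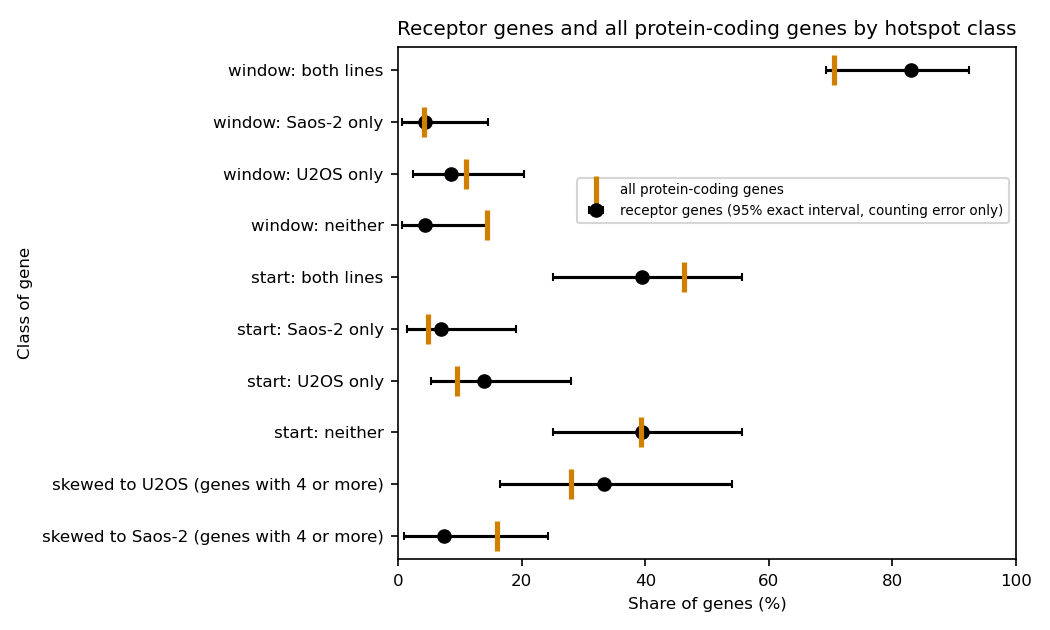
Share of genes in percent (x axis) in each class of hotspots in the window, hotspots at the start, and skew among genes with at least 4 hotspots in a line (y axis). Points with bars are receptor genes with exact 95% intervals and ticks are all protein-coding genes. The interval for skew to U2OS, 16.5 to 54.0%, holds the 28% of all such genes. The limit of 4 hotspots is itself part of the skew rule.

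Hotspot numbers around a receptor gene moved with those inside it at some genes only. The log2 ratio (U2OS over Saos-2) of hotspot numbers in the surrounding 2 Mb was above 0.8 at EPHA3, FGFR1, ERBB4 and MERTK among the skewed receptors. It was 0.02 at PDGFRB, 0.28 at RYK, 0.30 at ALK, 0.33 at ERBB3, 0.38 at TEK and 0.44 at FLT1. Over the whole chromosome of each gene, in the same order, the ratio was 0.51, 0.26, 0.42, 0.31, 0.18 and 0.08. U2OS also had more hotspots over the full lists, so the ratio around RYK is not read as opposite to the skew of that gene. MET and its surroundings both leaned to Saos-2, with 56 and 43 hotspots around it. Over the 39 receptors with hotspots in both lines the rank correlation between the ratio in the window and around it was 0.29, given as a description, since the points share both libraries.

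**Figure D5:**
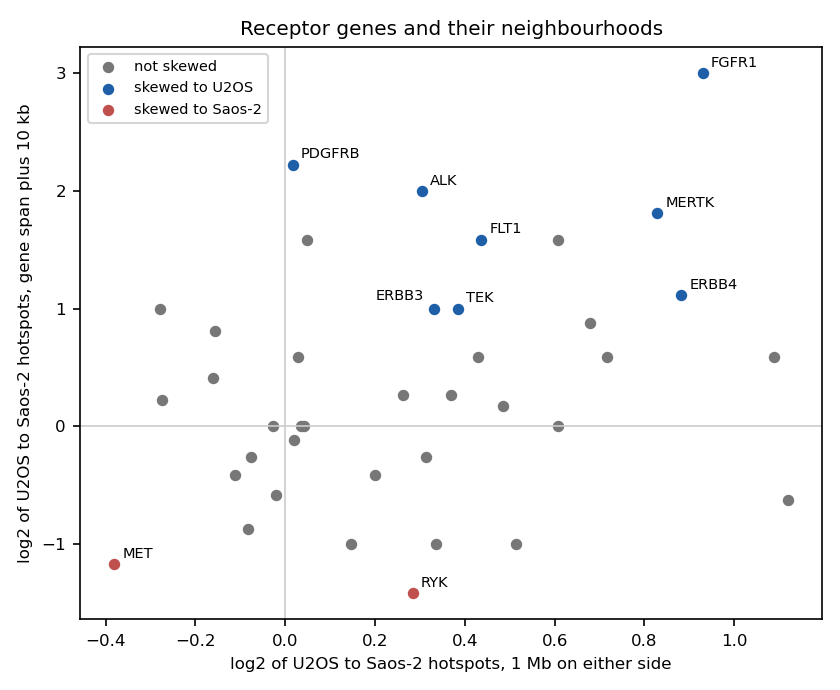
Log2 ratio (U2OS over Saos-2) of hotspot numbers in the gene window (y axis) against the same ratio in the 1 Mb on either side (x axis), with 1 point for each of the 39 receptors that have hotspots in both lines. PDGFRB and ALK lie high at ratios of 0.02 and 0.30 around them, and FGFR1 lies high with 0.93 around it.

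Genes that act with the receptors were counted in the same way. Of 42 ligand genes, 35 had hotspots in both lines, 5 had them in U2OS alone and 2 had none, with 120 Saos-2 and 138 U2OS hotspots. TGFA, a ligand of EGFR, had 0 and 4, PDGFB, the ligand of PDGFRB, 1 and 5, and NRG1, the ligand of ERBB3 and ERBB4, 8 and 17, all skewed to U2OS. FGF18 had 4 and 1 and ANGPT1, the ligand of TEK, 8 and 2, both skewed to Saos-2. A start hotspot was present at 9 of 32 ligand genes in each line.

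Of 20 adaptor and kinase genes, 19 had hotspots in both lines and 1 in Saos-2 only, and 13 of 15 with a listed start had a start hotspot in each line. STAT3 (2 and 7) was skewed to U2OS, and BRAF (7 and 2) to Saos-2. Among 11 feedback inhibitor genes 6 had hotspots in both lines, 4 had them in Saos-2 alone and 1 in U2OS alone. SPRED1 and LRIG1 each had 2 and 6 hotspots and were skewed to U2OS. SPRED2 (17 and 6) and ERRFI1, an inhibitor of EGFR (5 and 0), were skewed to Saos-2. All 9 feedback genes with a listed start had a start hotspot in Saos-2, and 5 had one in U2OS. The shares over all genes for these lists are those given above: 8.08% and 4.61% for skew to U2OS and to Saos-2, 70.5%, 4.23% and 10.9% for hotspots in both lines, Saos-2 alone and U2OS alone, and 46.3%, 4.78% and 9.54% for start hotspots in the same order.

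The lines' labels were set beside markers. All 8 genes of an osteoblast list, among them RUNX2, SP7 and COL1A1, had hotspots in both lines, and 4 of 5 with a listed start had a start hotspot in Saos-2 and 3 in U2OS. ALPL (4 and 11) and COL1A1 (2 and 8) were skewed to U2OS, and SP7 (5 and 2) to Saos-2. Of 16 markers of blood, epithelium, endothelium, nerve and melanocytes, 13 had a hotspot in the window in each line. Over all protein-coding genes 70.5% had one in both lines, 4.23% in Saos-2 alone and 10.9% in U2OS alone. The window counts are therefore not read as a trait of the markers. At the 5 with a listed start, 0 had a hotspot there in either line, where 39.3% of all listed genes had none. No epithelial marker had a listed start. CDH1 (3 and 11) was skewed to U2OS and GFAP (4 and 1) to Saos-2.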

How the data were processed

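Each library's hotspots were taken as the authors deposited them, on hg38 and at a false discovery rate of 0.05 per the file names. Reads were handled with Trimmomatic 0.38 and BWA 0.7.15, per the submitters' processing notes. The hotspot caller and the read depth are not given in the sources used here. The deposited −log10 value, from 1.30 to a cap of 100, was taken as each hotspot's significance. The lists carry no header naming it, and the score beside it was not used.

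Genes and promoters came from RefSeq on GRCh38. All 47 symbols matched. For the 4 without listed starts, either end of the gene span was used in place of a start and they were left out of counts of starts. Windows, overlap, skew and intervals (Clopper-Pearson, or Poisson for a single count) were computed with Python 3.11.15, pandas 2.3.3 and scipy 1.17.1, after a check on simulated data. Described in detail were skewed genes, genes open in 1 line, the 5 with most hotspots, and the ErbB, FGF and PDGF families. Sites named were the 5 strongest per line with and without overlap, and pathway genes named were skewed, of which 1 is not reported here. Other genes and start hotspots were named after their values were seen. Members and lists were chosen with earlier results of these data known. Alternatives covered list length, significance, merging, width, window, overlap, skew limit and start distance.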

Additional observations from a re-analysis of the deposited data

How the results depend on the processing

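Of 120 recomputed values, 92 stayed close to those reported and 28 moved. Reversal was scored only for the gap between the lines at each of the 11 skewed receptors, and no such gap changed sign. Family directions did change in some settings, as given above for ErbB, DDR and MUSK. CSF1R, not skewed as reported, was skewed to Saos-2 with equal lists and over the gene span alone, and to U2OS with windows of 50 kb. Keeping the stronger 50% of each list left 94 Saos-2 and 116 U2OS receptor hotspots, 7 genes in U2OS only, 9 in neither line, 4 skewed to Saos-2, and starts open at 6 genes in both lines and 27 in neither. Hotspots of at least 200 bp numbered 115 and 162, with 6 genes in neither line, 4 skewed to Saos-2, and starts open at 11 in both lines and 1 in Saos-2 only. Windows of 50 kb gave 381 U2OS hotspots, 1 gene in each single line, 0 in neither, 16 skewed to U2OS and 1 to Saos-2, and 3 families with more in Saos-2. The gene span alone left 7 genes in neither line. Equal lists gave 7 genes skewed to Saos-2, merging 1 and a limit of 3 times 0. Overlap of 50% of both hotspots gave shares of 41.9% and 31.6%, and 1 family in place of 4 with at least 50% overlapped in both lines. Leaving out hotspots near the starts of other genes, chosen after seeing the data as was leaving out ALK, gave 4 genes in Saos-2 only.

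For single genes, FGFR1 kept 0 and 2 hotspots, FLT1 0 and 0, MERTK 1 and 2 and RYK 3 and 2 among the stronger 50%, and none of these was then skewed. The cause was not tested. Depth is unknown, so an absent hotspot is one not detected. No paired analysis was possible because each line was represented by 1 library, and no library was left out for the same reason.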
